A study of Mus musculus with 7 samples.

Results

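The T cell checkpoint and costimulation genes Ctla4, Pdcd1, Lag3, Tigit, Icos, Cd28, Havcr2, Btla, Cd274 and Pdcd1lg2 were taken by gene name, 10 of the 55487 genes in the count table. Their RNA was sequenced from inguinal white fat, the fat pad of the groin, which in mice holds a lymph node. All mice were NOD/ShiLtJ, a strain that develops autoimmune diabetes. Their blood glucose lay between 190 and 230 mg/dL, and they received injections under the skin for 7 days, with tissue taken 2 to 8 weeks afterwards. The 3 sham libraries came from mice given KRBH buffer. The 4 imBAT libraries came from mice given the fraction above 100 kDa of buffer conditioned by brown adipocytes (imBAT in the labels, CB-100 in the series text), at 1.5 mg/kg body weight. The labels give neither age nor the week of each animal, and do not say that each library is a separate mouse. The p-values therefore reflect only how these 7 libraries vary, which may be technical.

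T cells need a signal from a costimulatory receptor beside the antigen receptor to become fully active, and inhibitory receptors, the checkpoints, restrain them. CD28 and ICOS are costimulatory, while CTLA-4 competes with CD28 for the ligands CD80 and CD86. PD-1 (Pdcd1), BTLA, LAG-3, TIGIT and TIM-3 (Havcr2) are inhibitory, and PD-L1 (Cd274) and PD-L2 (Pdcd1lg2) are the ligands of PD-1. In NOD mice these pathways are known to hold back diabetes: blocking PD-1 or PD-L1 brings the disease on early.

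Several of the genes lie side by side on GRCm38. On chromosome 1, Cd28 (60716800 to 60773359), Ctla4 (60887000 to 60915832) and Icos (60977927 to 61000320) follow one another on the plus strand, with 113.6 kb and 62.1 kb between them, and Pdcd1 lies farther along on the minus strand (94038305 to 94052553). On chromosome 19, Cd274 (29367455 to 29388095) and Pdcd1lg2 (29410919 to 29471161) are 22.8 kb apart on the plus strand. Tigit (43648867 to 43664146, minus strand) and Btla (45224315 to 45257670, plus strand) share chromosome 16, Havcr2 is on chromosome 11 (46454935 to 46481255, plus strand) and Lag3 on chromosome 6 (124904361 to 124911705, minus strand). Exons of Cd274 overlap the gene AC119228.1 on the opposite strand, so reads of the pair could not be told apart if strand was not used in counting.

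The 250 bases before the start site were at hand for 7 of the 10 genes (RefSeq, GRCm38.p6), all but Cd28, Icos and Lag3. These RefSeq starts can differ from the ends of the gene spans given above: that of Ctla4 lies inside its span, which opens with a longer transcript not marked as coding. The stretches were searched on both strands for the NFAT core GGAAAA, the AP-1 site TGANTCA, the interferon-gamma activated site TTCNNNGAA, the core of the interferon-stimulated response element (TTTC, any 2 bases, TTTC) and the NF-kB site (GGG, any 5 bases, CC). The NFAT core, the binding letters of a factor switched on by antigen receptor signals, was present before Ctla4, Tigit and Pdcd1lg2 and in 20.4% of 32851 promoters of the same length. Those 3 stretches are shown because Ctla4 had the largest fall of the group and the other genes carry the same letters. Capitals mark the NFAT core, on either strand, and in Pdcd1lg2 also an NF-kB site near the left end, a motif found in 45.8% of promoters.
Ctla4, chr1:60908775-60909024, plus strand: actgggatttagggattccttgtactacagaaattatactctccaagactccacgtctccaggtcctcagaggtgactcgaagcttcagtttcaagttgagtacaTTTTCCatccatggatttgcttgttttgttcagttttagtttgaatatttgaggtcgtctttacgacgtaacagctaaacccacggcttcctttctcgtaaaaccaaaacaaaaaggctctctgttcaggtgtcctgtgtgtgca
Tigit, chr16:43664185-43664434, minus strand: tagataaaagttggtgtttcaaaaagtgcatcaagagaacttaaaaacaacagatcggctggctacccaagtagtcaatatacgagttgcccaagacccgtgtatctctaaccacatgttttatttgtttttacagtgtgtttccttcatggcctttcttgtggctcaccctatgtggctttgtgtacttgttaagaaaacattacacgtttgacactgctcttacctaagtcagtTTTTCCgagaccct
Pdcd1lg2, chr19:29410669-29410918, plus strand: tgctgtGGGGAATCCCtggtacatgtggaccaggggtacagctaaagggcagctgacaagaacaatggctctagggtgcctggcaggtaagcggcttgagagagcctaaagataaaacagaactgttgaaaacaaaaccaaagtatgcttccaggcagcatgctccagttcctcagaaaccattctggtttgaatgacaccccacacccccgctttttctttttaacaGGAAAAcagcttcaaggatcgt
An AP-1 site stood before Havcr2 (in 6.7% of promoters), and none of the motifs was found in the windows before Pdcd1, Btla and Cd274. An annotated exon covers 185 of the 250 bases in the Cd274 window and 22 in the Btla window, and the other windows overlap no exon. A match of letters is a description of the sequence and not a binding site.

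The comparison addressed how groin fat of NOD mice differed after injection of this fraction. Libraries held 41025786 to 63650016 counts. Levels are given as CPM, a gene's count relative to its library's total after TMM scaling of the totals, and a gene was called at an adjusted p under 0.05 in edgeR's quasi-likelihood test over 26393 genes. The makeup of the libraries differed strongly: the summed level of 16 T cell markers was 1742 to 2139 CPM in sham and 347 to 956 CPM in imBAT, that of 8 B cell markers 1758 to 2116 and 278.1 to 756 CPM, and that of 8 white adipocyte markers 957.2 to 1718 and 7196 to 15020 CPM. The tissue label is that of fat, yet Glycam1, a sialomucin of lymph node venules, stood at 883.1 ± 181.6 CPM (SD, n = 3) in sham and 235 ± 99.1 CPM (n = 4) in imBAT. Of 5 tested lymph node stroma and venule markers 4 were lower, and Cxcl13, at 72.4 ± 21.2 and 101.2 ± 55.0 CPM, was not called. Every T cell, B cell and adipocyte marker had counts in every library. In bulk tissue, fewer cells of a type and less of an RNA per cell cannot be told apart.

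All 10 genes passed the expression filter and all 10 fell in imBAT, by 1.45-fold to 4.63-fold. Lower calls made up 19.3% of all genes tested (5084 of 26393), higher calls 24.3% and calls in either direction 43.5%. The lower share was 11.1% without sham replicate 2, 11.3% without sham replicate 3 and 31.0% with upper-quartile scaling. The 4 imBAT libraries lay below the 3 sham libraries for each of the 10 genes, an arrangement seen for 25.2% of tested genes. The reverse arrangement was seen for 26.8%, so groups did not overlap for 52% of tested genes. The median log2 fold change of the 10 was -1.73, against -0.01 for all tested genes. The T cell list fell beside them, with 16 of 16 markers lower and a median of -1.51, and its part in the falls was not tested.

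**Figure D1:**
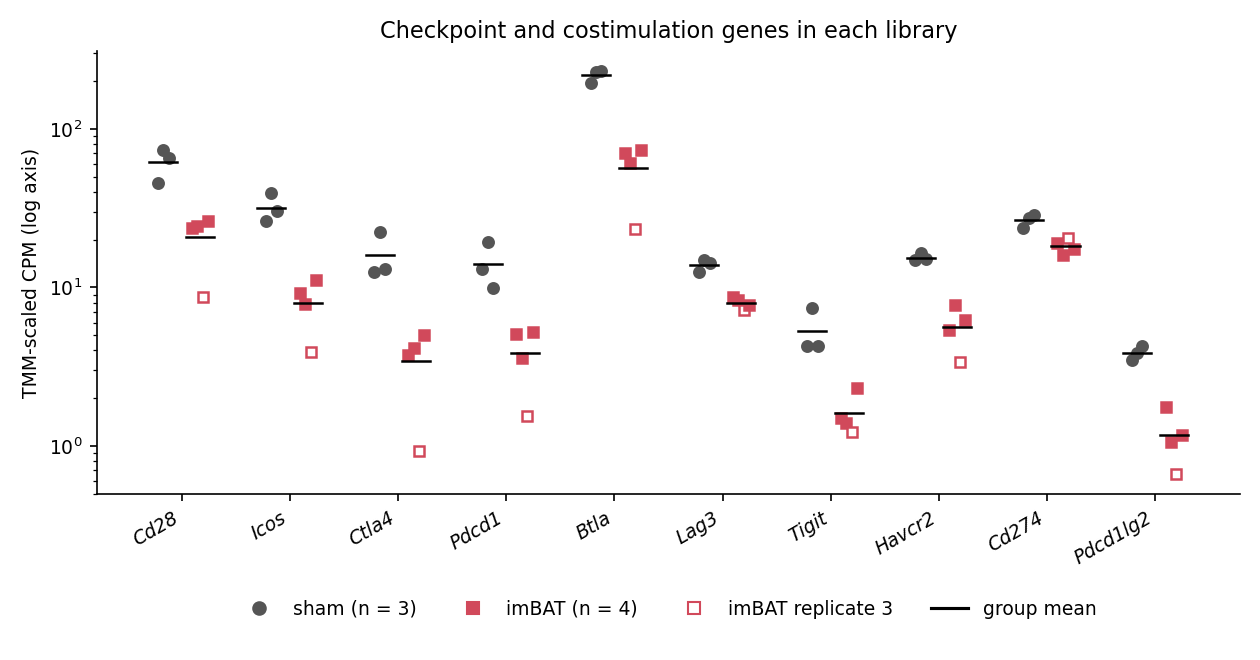
TMM-scaled CPM (log axis) of the 10 genes in each library, circles for sham (n = 3), squares for imBAT (n = 4), the open square for imBAT replicate 3 and bars for group means. Every imBAT library lies below every sham library, with the narrowest gap for Cd274 and imBAT replicate 3 the lowest library for 9 of the 10 genes.

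The costimulatory receptors fell 2.97-fold and 3.97-fold. Cd28, the receptor that naive T cells carry, stood at 45.5, 74.0 and 65.2 CPM in sham replicates 1 to 3 and at 23.8, 24.3, 8.68 and 26.1 CPM in imBAT replicates 1 to 4. The other imBAT libraries were close to each other, imBAT replicate 3 was far lower, and the groups did not overlap. The log2 fold change was -1.57 ± 0.34 (SE, edgeR adjusted p = 0.0077). Icos, which appears on T cells after activation and is high on follicular helper cells, stood at 26.1, 39.4 and 30.3 CPM in sham and at 9.18, 7.88, 3.91 and 11.2 CPM in imBAT. Its highest imBAT library reached 42.7% of its lowest sham library. This gave a log2 fold change of -1.99 ± 0.31 (edgeR adjusted p = 0.00237).

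The inhibitory receptors Ctla4, Pdcd1 and Btla fell 3.64-fold to 4.63-fold. Ctla4, which regulatory T cells express without stimulation, stood at 12.6, 22.4 and 13.2 CPM in sham and at 3.76, 4.14, 0.935 and 4.99 CPM in imBAT. Sham replicate 2 was the highest library and imBAT replicate 3, at 21.8% of the mean of the other imBAT libraries, the lowest. The log2 fold change was -2.21 ± 0.47 (edgeR adjusted p = 0.00697), with a 95% interval of -3.29 to -1.13, the widest of the 10 genes.

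Pdcd1, induced by antigen receptor signals, stood at 13.04, 19.3 and 9.92 CPM in sham and at 5.09, 3.58, 1.55 and 5.25 CPM in imBAT. The sham libraries spread about as widely for Pdcd1 as for Ctla4, with sham replicate 2 again highest. Pdcd1 changed by -1.86 ± 0.40 on the log2 scale (edgeR adjusted p = 0.00704). Btla, which B cells and T cells both carry, was by far the most abundant of the 10 genes, at 194, 227 and 232 CPM in sham and 70.7, 60.6, 23.3 and 73.6 CPM in imBAT. It supplied 50.3% to 55.6% of the summed CPM of the 10 genes in sham libraries and 32.7% to 47.5% in imBAT libraries. Its log2 fold change was -1.93 ± 0.34 (edgeR adjusted p = 0.00329), and the B cell list beside it had 8 of 8 markers lower with a median of -1.77.

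The remaining inhibitory receptors fell by 1.75-fold to 3.30-fold. Tigit, a receptor of T and NK cells that binds nectin-family ligands, stood at 4.24, 7.43 and 4.25 CPM in sham and 1.49, 1.39, 1.23 and 2.33 CPM in imBAT (log2 fold change -1.72 ± 0.30, edgeR adjusted p = 0.00322). Havcr2, found on activated T cells and also on macrophages and dendritic cells, was even in sham at 14.8, 16.4 and 15.1 CPM and stood at 5.36, 7.72, 3.37 and 6.21 CPM in imBAT (log2 fold change -1.44 ± 0.25, edgeR adjusted p = 0.0031). Lag3, a relative of CD4 that binds MHC class II, was even in both groups, at 12.5, 14.9 and 14.3 CPM in sham and 8.68, 8.29, 7.16 and 7.70 CPM in imBAT. Its imBAT replicate 3 was at 87.0% of the mean of the other imBAT libraries, where Havcr2 was at 52.4% and Tigit at 70.9%. For Lag3 the log2 fold change was -0.81 ± 0.14 (edgeR adjusted p = 0.00303).

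The ligands of PD-1 fell by different amounts. Cd274, which many cell types can express, among them endothelial and myeloid cells, stood at 23.6, 27.4 and 28.7 CPM in sham and at 19.2, 16.1, 20.5 and 17.4 CPM in imBAT. The highest imBAT library reached 86.8% of the lowest sham library, and that library was imBAT replicate 3. The log2 fold change was -0.54 ± 0.13 (edgeR adjusted p = 0.00939, and up to 0.0481 with 1 library left out). Pdcd1lg2, expressed mainly by dendritic cells and macrophages, stood at 3.49, 3.88 and 4.25 CPM in sham and at 1.75, 1.06, 0.664 and 1.18 CPM in imBAT, a log2 fold change of -1.73 ± 0.30 (edgeR adjusted p = 0.0033). Of 9 dendritic cell markers 6 were lower (summed 317.8 to 387.6 CPM in sham, 111.1 to 196.8 in imBAT), of 9 macrophage and monocyte markers 6 were higher (1102 to 1220 and 809.3 to 2275 CPM), and of 6 blood endothelial markers 5 were higher and 1 lower (570.2 to 596.4 and 623.9 to 812.8 CPM). Each of these markers had counts in every library, and their part in the values of the ligands was not tested.

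Because antigen receptor RNA fell in the same libraries, each gene was also counted against the CD3 complex, the signalling chains of the T cell receptor (Cd3d, Cd3e, Cd3g and Cd247, each 2.70-fold to 2.85-fold lower in imBAT). The 4 genes together held 14904 to 21444 counts in sham and 8696, 11002, 2344 and 6094 counts in imBAT replicates 1 to 4. Per 100 CD3 counts, Cd28 stood at 13.8, 18.4 and 15.7 in sham and at 14.9, 13.5, 15.1 and 17.9 in imBAT. On this scale imBAT replicate 3 lay within the range of the other libraries for Cd28, and the groups overlapped.

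Of the 10 genes, 7 overlapped between groups on this scale, Btla was lower in every imBAT library, and Lag3 and Cd274 were higher in every imBAT library. Over all tested genes, every imBAT library was above every sham library per CD3 count for 75.4% and below for 0.436%. The higher values of Lag3 and Cd274 are thus the arrangement that most genes had on this scale. Btla stood at 58.9, 56.6 and 55.8 per 100 CD3 counts in sham and at 44.1, 33.7, 40.4 and 50.4 in imBAT. Lag3 stood at 3.80, 3.71 and 3.44 in sham and at 5.42, 4.61, 12.4 and 5.27 in imBAT. Cd274 stood at 7.16, 6.83 and 6.89 in sham and at 12.0, 8.94, 35.5 and 11.9 in imBAT. For Lag3 and Cd274 the imBAT mean rested largely on imBAT replicate 3, the library with the fewest CD3 counts, and the groups were apart without it too. The mean log2 difference was 0.80 for Lag3 (0.48 without imBAT replicate 3), 1.07 for Cd274 (0.64) and -0.45 for Btla (-0.44). An exact two-sided permutation test gave p = 0.0571 for each of these 3 genes, the smallest that 35 splits allow, and 0.191 adjusted over the 10 genes. With 3 against 4 libraries this test cannot reach 0.05.

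The edgeR fit with the CD3 count as the scale called Cd274 higher, with a log2 difference of 1.29 ± 0.58 (SE, adjusted p = 0.0367), and no other gene of the 10. On that scale 70.6% of all tested genes were called, 70.5% higher and 0.11% lower, and the 1 call among the 10 genes is a smaller share than this background. The median over all tested genes was 1.74, above the value of Cd274 and of each of the other 9 genes. The call was lost when any 1 sham library was left out (edgeR adjusted p = 0.105 to 0.132), with the difference still at 1.28 to 1.31, and without imBAT replicate 3 the difference was 0.65 (adjusted p = 0.00899). Ctla4 had the lowest value, -0.79 with a 95% interval of -1.85 to 0.28 (edgeR adjusted p = 0.178). For Cd28 the interval was -1.15 to 1.03 and for Tigit -1.15 to 1.05, so differences of up to about 1 on the log2 scale in either direction could not be told from none. The standard errors on this scale, 0.54 to 0.58 for all 10 genes, are drawn toward a spread shared by all genes.

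**Figure D2:**
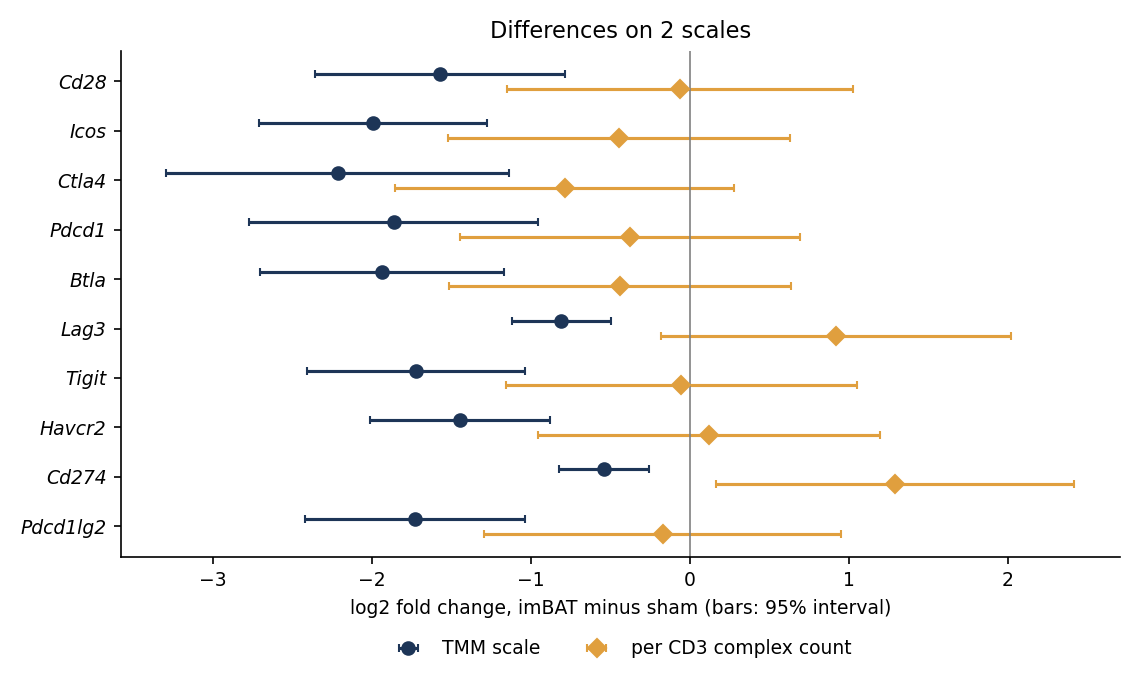
Log2 fold change, imBAT minus sham, with 95% intervals for the 10 genes, circles on the TMM scale and diamonds per CD3 complex count. On the TMM scale all intervals lie below 0, from -2.21 for Ctla4 to -0.54 for Cd274, and per CD3 count all but that of Cd274 include 0.

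**Figure D3:**
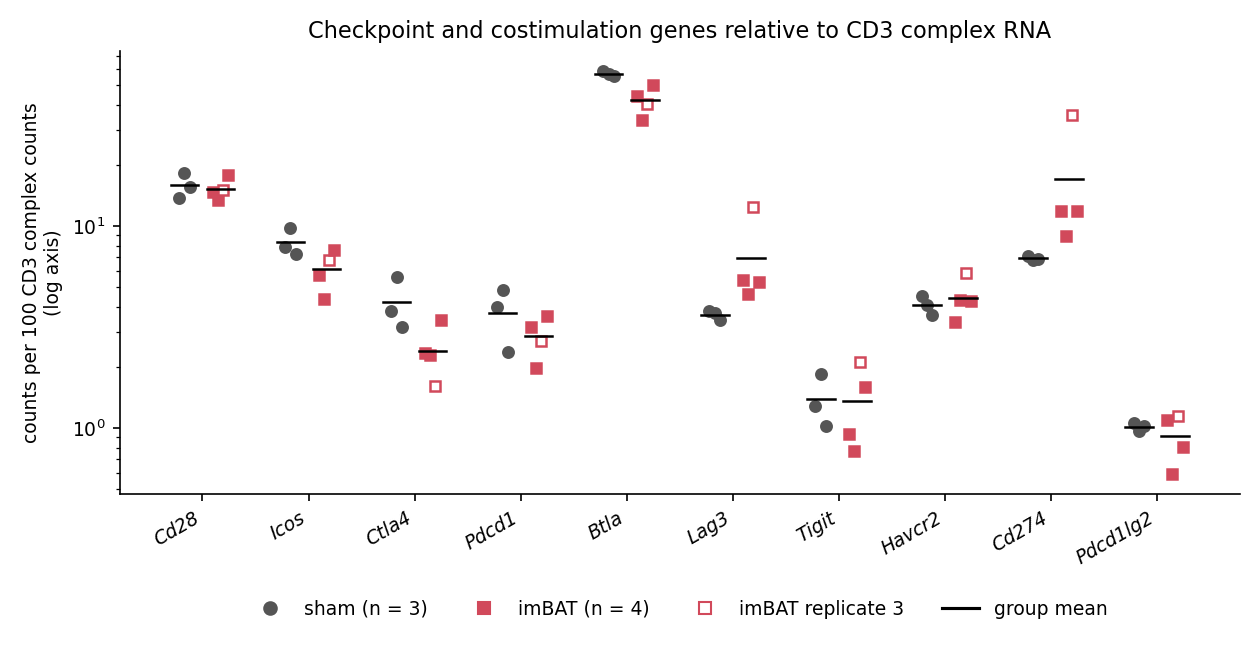
Counts of each gene per 100 counts of the CD3 complex in the same library (log axis), circles for sham (n = 3), squares for imBAT (n = 4), the open square for imBAT replicate 3 and bars for group means. Groups are apart for Btla (imBAT lower), Lag3 and Cd274 (imBAT higher), with imBAT replicate 3 at 12.4 for Lag3 and 35.5 for Cd274.

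Ratios between genes of the group were computed within each library, for receptors that share a family and for the ligand pair. The ratio of Ctla4 to Cd28 counts, an inhibitory over a costimulatory receptor of the same ligands, was 0.276, 0.303 and 0.202 in sham and 0.158, 0.171, 0.108 and 0.191 in imBAT. The ratio of Icos to Cd28 was 0.574, 0.532 and 0.464 in sham and 0.386, 0.325, 0.450 and 0.427 in imBAT. The ratio of Pdcd1lg2 to Cd274 was nearly equal in the sham libraries, at 0.148, 0.141 and 0.148, and was 0.0914, 0.0661, 0.0325 and 0.0674 in imBAT. Each ratio was lower in 4 of 4 imBAT libraries than in any sham library. How many of all tested genes separate in this way as a ratio to Cd28 or Cd274 was not computed. The separation is therefore not read as particular to these pairs. On other scales, every imBAT library lay below every sham library for 25.2% of tested genes in CPM and 0.436% per CD3 count. In CPM, groups did not overlap in either direction for 52%. None of these shares is a share for ratios to Cd28 or Cd274. The mean log2 differences were -0.74 for Ctla4 to Cd28, -0.40 for Icos to Cd28 and -1.28 for Pdcd1lg2 to Cd274. The exact two-sided permutation test gave p = 0.0571 for each, raw and adjusted over the 3 ratios, again the smallest p of this design, which cannot pass 0.05.

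**Figure D4:**
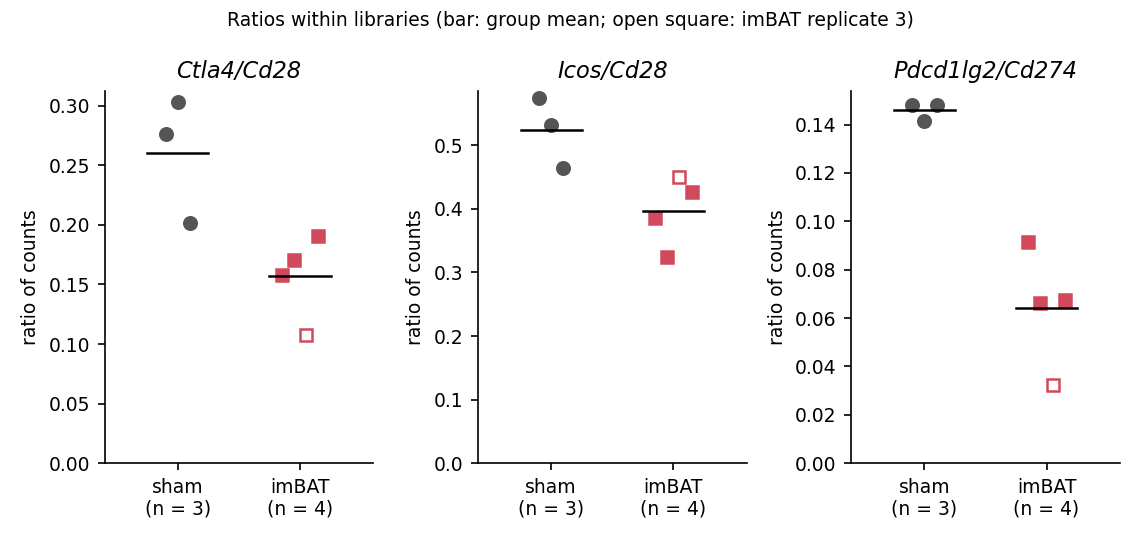
Ratios of counts within each library for Ctla4 to Cd28, Icos to Cd28 and Pdcd1lg2 to Cd274 (linear axes from 0), circles for sham (n = 3), squares for imBAT (n = 4), the open square for imBAT replicate 3 and bars for group means. Each imBAT library lies below each sham library in all 3 panels, closest for Icos to Cd28 (0.450 against 0.464).

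Compared per length, as CPM per kb of merged exons, Btla led both groups, at 64.1 ± 6.15 (SD, n = 3) in sham and 16.8 ± 6.83 (n = 4) in imBAT, and its libraries did not overlap with those of the next gene. In sham the genes from the second to the ninth place were Cd28 (10.1 ± 2.38), Icos (9.31 ± 1.98), Cd274 (7.33 ± 0.73), Pdcd1 (7.30 ± 2.48), Ctla4 (6.89 ± 2.37), Lag3 (6.60 ± 0.58), Tigit (5.78 ± 2.00) and Havcr2 (5.67 ± 0.30). Each of these neighbours overlapped with the next, so their order is not fixed by 3 libraries. Pdcd1lg2 was lowest in both groups, at 1.98 ± 0.19 and 0.593 ± 0.229, apart from its neighbour in sham and overlapping with it in imBAT. In imBAT, Cd274 (5.05 ± 0.53) took the second place, apart from Lag3 (3.77 ± 0.32) in the third, while Ctla4 (1.48 ± 0.75) stood in the ninth. The share of Cd274 in the summed CPM of the 10 genes was 6.06% to 6.87% in sham and 11.2% to 28.7% in imBAT.

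Other receptors of the same kind fell with the 10 genes. Of 18 further coinhibitory and costimulatory receptors 15 fell and none rose, with a median log2 fold change of -1.28. Cd244a, a receptor of the SLAM family, fell 2.62-fold, Slamf6, which marks naive and stem-like T cells, 4.33-fold, Tnfrsf4 (OX40) 2.84-fold and Cd40lg, the helper signal to B cells, 3.13-fold. Vsir, Pvrig and Klrg1 were not called, with Vsir (VISTA, a checkpoint that myeloid cells also express) at 160.4 ± 18.3 CPM (SD, n = 3) and 189.3 ± 22.8 CPM (n = 4).

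The list of ligands split by direction. It also holds Cd276 and Vtcn1 of the B7 family, for which no receptor is named here. Of 19 tested, 7 fell and 6 rose, with a median of -0.12. Over all tested genes 19.3% were called lower and 24.3% higher, with a median of -0.01. The costimulatory ligands of CD28 on antigen-presenting cells, Cd86 and Cd80, fell 2.18-fold and 2.34-fold, Icosl, the ligand of ICOS, 2.63-fold, Cd40 2.90-fold and Tnfrsf14, the ligand of BTLA, 1.80-fold. The genes that rose were Cd276 (B7-H3, 3.79-fold), Vtcn1 (B7-H4, 4.18-fold), Nectin3 (2.38-fold), Nectin2 (1.57-fold), Ceacam1 (1.59-fold) and Cd200 (1.62-fold). Cd276 went from 4.03 ± 1.24 to 15.3 ± 2.43 CPM (edgeR adjusted p = 0.00131) and Vtcn1, known from epithelia, from 6.34 ± 2.77 to 26.5 ± 8.56 CPM (edgeR adjusted p = 0.00345). The TIM-3 ligand Lgals9, at 55.1 ± 2.77 and 68.9 ± 16.02 CPM, was not called. Beside the genes of this list that rose, 8 of 8 adipocyte, 6 of 9 macrophage and monocyte and 5 of 6 endothelial markers were called higher. The endothelial marker Pecam1 was called lower. The summed macrophage and monocyte level of imBAT replicate 2, 809.3 CPM, was below that of every sham library. Much of each sham sum was Lyz2, at 700.6 to 792.2 CPM in sham and 361.2 CPM in imBAT replicate 2. Csf1r and Cd68 also lay below every sham library there, and C1qb and Itgam within the sham range. Adgre1, Mrc1, C1qa and Cd14 were each above every sham library. The part of adipocytes, macrophages, monocytes and endothelial cells in the values of the ligand list was not tested.

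Among regulatory T cell genes 5 of 9 fell and 1 rose (median -1.08). Foxp3, the lineage factor, fell 2.70-fold from 39.2 ± 5.11 to 14.5 ± 4.13 CPM, Ikzf2 (Helios) 2.11-fold and Il2ra, the alpha chain of the IL-2 receptor, 2.49-fold. Lrrc32, which holds latent TGF-beta on the cell surface and is also made by endothelium and stroma, rose 2.06-fold. Of 5 follicular helper T cell genes 2 fell, the cytokine Il21 4.88-fold from 1.55 ± 0.09 CPM and the homing receptor Cxcr5 2.96-fold. B cells also carry Cxcr5. Maf, also expressed by macrophages, rose 2.22-fold. Per CD3 count the edgeR fit called 0 genes of either list lower and 3 of each higher, beside 70.5% higher over all tested genes. On its log2 scale Foxp3 stood at 0.16, Ikzf2 at 0.59, Il2ra at 0.24, Il21 at -0.78 and Cxcr5 at -0.08, none called. The T cell list (median -1.51 on the TMM scale) fell beside both lists, and its part was not tested. Of 6 NK cell markers 2 were higher and 1 lower (summed 18.7 to 21.6 CPM in sham and 12.2 to 17.7 in imBAT). Prf1, the marker that fell, supplied most of the sham sum, with means of 15.4 CPM in sham and 7.56 CPM in imBAT. Gzma (0.747 and 2.26 CPM) and Gzmb (0.864 and 1.96 CPM) were the markers that rose.

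**Figure D5:**
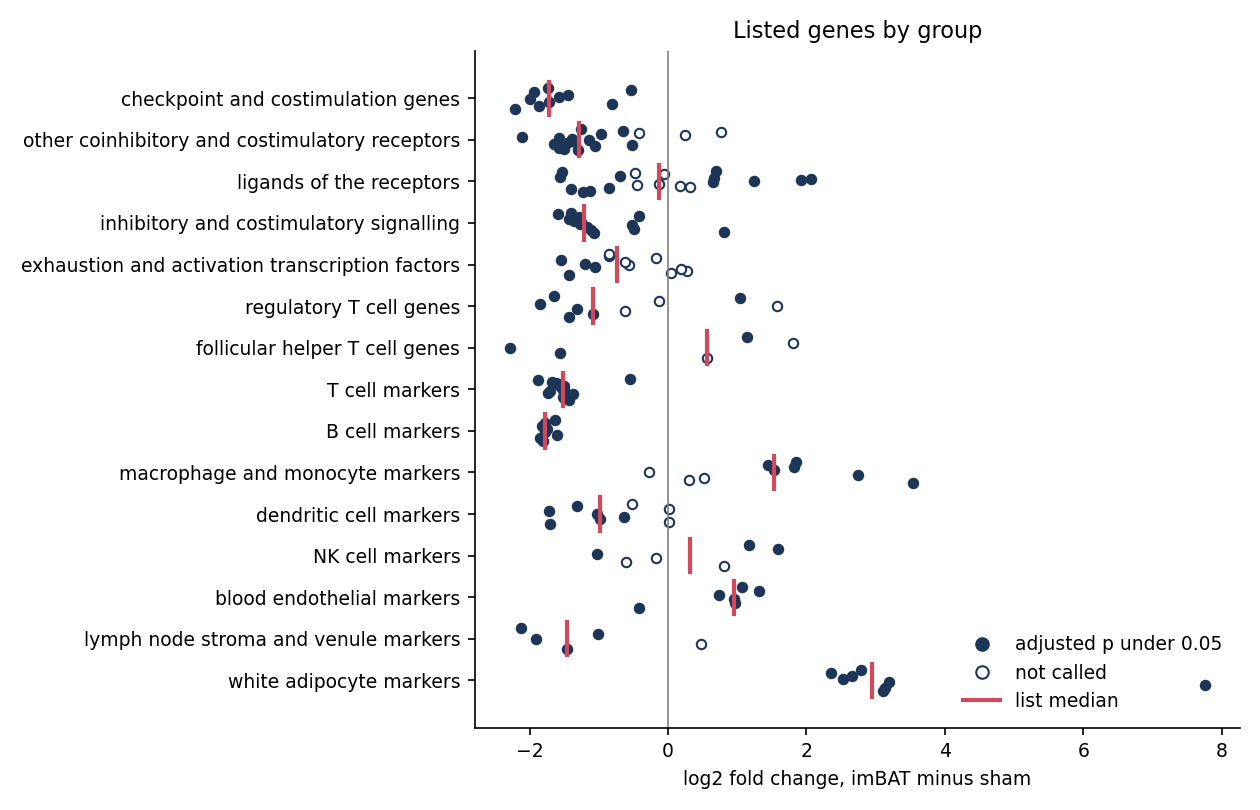
Log2 fold change, imBAT minus sham, of each tested gene by list, filled circles for adjusted p under 0.05, open circles for genes not called and vertical bars for list medians. The 10 checkpoint and costimulation genes (median -1.73) lie at the side of the T cell (-1.51) and B cell (-1.77) markers. The genes of the ligand list spread to both sides of 0.

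The genes whose profile over the 7 libraries lay closest to that of Ctla4, by the root mean square difference of log2 CPM centred on each gene's mean, were Il7r (0.13), the IL-7 receptor of naive and memory T cells, Tdgf1 (0.21) and the chemokine Ccl22 (0.23). Il7r shared the high value of sham replicate 2 (309.5 CPM, against 159.2 and 201.5) and the low one of imBAT replicate 3 (13.6 CPM, against 63.3 to 76.7). Closest to Cd274 were Maneal (0.07), Ggps1 (0.07), of isoprenoid synthesis, and Gbp5 (0.08), an interferon-induced guanylate-binding protein. Gbp5 stood at 40.3, 47.7 and 46.1 CPM in sham and 30.3, 28.0, 30.8 and 30.1 CPM in imBAT. These distances are descriptions over 7 libraries, taken among 14647 genes. All 7 libraries enter each of them, the difference between groups included.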

How the data were processed

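RNA of inguinal white adipose tissue was measured in 3 sham and 4 imBAT libraries, grouped by the treatment label and numbered in accession order. The file the authors deposited holds raw gene counts. STAR 2.7.9a was the aligner and Ensembl release 101 the genome, per the labels' protocols. Salmon 1.5.2, Subread, limma, edgeR and featureCounts 2.0.3 are listed without a role, per the submitters' processing notes. The strand setting is not given in the sources used here. Of 55774 rows, 287 repeats of a gene identifier were dropped. Same-group libraries differed beyond sampling noise (chi-square of 20.4 to 216.1 per degree of freedom).

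Genes were tested with edgeR 4.0.16 in R 4.3.3 (quasi-likelihood, robust, TMM, default filter with minimum count 10, group alone, 5 residual degrees of freedom), with Benjamini-Hochberg adjustment over all tested genes. SE is the log2 fold change divided by the square root of F. The CD3 fit set the library scale to the summed CD3 counts. Ratios were tested by exact permutation (scipy 1.17.1), and the test of single genes per CD3 count was added after seeing the data. Log2 CPM used a prior count of 2. Coordinates and exon lengths are from GENCODE M21 (GRCm38). Only the gene fits (edgeR, DESeq2 and limma voom) were tested on simulated data, in which far fewer genes changed than were called here. The permutation tests, the ratios and Dixon's criterion were not.

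The 10 genes and the lists were chosen with earlier results of these data known. The text names the 10 genes, the CD3 genes and genes from the lists other than cell type markers. Each of those lists gives up to 3 genes with the smallest p (4 for receptors and ligands) and any called against most of it. Cell type markers were not named by this rule. For Ctla4 and Cd274, the largest and smallest change, the text names the 3 nearest genes with a mean of at least 1 CPM. Cd80, Tnfrsf14, Icosl, Lgals9, Vsir, Pvrig, Klrg1, Ptpn6, Tox2 and Cxcl13 were chosen after their values were seen. So were the macrophage and NK cell markers named by symbol. Each choice was also varied: scaling (upper-quartile, RLE), filter (none, or 1 CPM in 3 libraries), tool (limma 3.58.1 with voom, DESeq2 1.42.0), a block on the number that opens each title, other T cell scales and leaving out each library.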

Additional observations from a re-analysis of the deposited data

Results flagged for a closer look

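In 43 sets of 4 imBAT values, 4 had a library that stood apart from the other 3 by Dixon's criterion, which chance alone exceeds in about 1 of 20 sets. The sets reuse the same libraries and are not independent, so the number flagged is not to be weighed against that rate. All 4 of these values belong to imBAT replicate 3. Cd28 stood at 8.68 CPM there, while imBAT replicates 1, 2 and 4 held 23.8 to 26.1 CPM. Lag3 stood at 12.4 per 100 CD3 complex counts, against 4.61 to 5.42, and Cd274 at 35.5, against 8.94 to 12.0. Both share 1 divisor, the 2344 CD3 counts of that library, against 6094 to 11002 in the other imBAT libraries. In CPM imBAT replicate 3 was not flagged for either gene, at 87.0% (Lag3) and 116.5% (Cd274) of the mean of the other imBAT libraries. The summed level of the 19 genes of the ligand list was 464.4 CPM, against 562.4 to 580.3 CPM.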

How the results depend on the processing

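All 10 genes were called lower under each of the 14 alternatives to the comparison with sham, with adjusted p up to 0.0481 (Cd274 without sham replicate 3). The share of all genes called lower in these alternatives ran from 10.0% (DESeq2, over all 55487 genes) to 31.0% (upper-quartile scaling). It was 19.3% in the main fit. The log2 fold change ranged from -2.50 to -1.89 for Ctla4 and from -0.78 to -0.48 for Cd274. With upper-quartile scaling the median over all tested genes was -0.247 in place of -0.008, with 8180 lower and 4722 higher calls, so 36.6% of calls were higher in place of 55.8%. Leaving out 1 library gave 3024 to 5097 lower calls, with 3024 without sham replicate 2 and 3074 without sham replicate 3. Per CD3 count, the number of the 10 genes called higher was 0 to 1 with 1 library left out and 2 with Ptprc counts as the scale, where Lag3 joined Cd274 (log2 difference 0.92, adjusted p = 0.0356). Values near 0 on that scale changed sign: with 1 library left out, Tigit ranged from -0.348 to 0.216, Cd28 from -0.154 to 0.054 and Havcr2 from -0.038 to 0.234. The labels do not say whether same-numbered titles are pairs. Correlations of deviations over genes were 0.10, 0.11 and -0.01 for same-numbered libraries and -0.14 to 0.04 for the others. Sham replicates 1 and 2 were closest to their own number and sham replicate 3 was not. With so few shared numbers this check cannot exclude pairing. With the replicate block, calls were 6198 higher and 4655 lower, all 10 genes were called lower, and per CD3 count Tigit stood at 0.12 and Cd28 at 0.00. The cause of these changes was not tested. Pdcd1lg2 (27 to 219 counts per library) and Tigit (50 to 370) have the lowest summed counts of the 10 genes.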

Other observations

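Signalling genes downstream of the receptors moved largely with them. Of 14 tested, 13 fell and 1 rose, with a median log2 fold change of -1.21. Malt1, of the complex that carries costimulation to NF-kB, fell 2.44-fold, with 238.8 ± 9.13 CPM in sham (SD, n = 3) and 97.7 ± 22.8 CPM in imBAT (n = 4). Vav1, an exchange factor that acts below CD28, fell 2.39-fold. Ptpn6 (SHP-1) and Ptpn11 (SHP-2), phosphatases that bind the tails of inhibitory receptors, went in opposite directions: Ptpn6, found mainly in blood cells, fell 2.10-fold and Ptpn11, found in most cells, rose 1.75-fold (edgeR adjusted p = 0.00412 and 0.00243).

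Of 12 transcription factors of T cell activation and exhaustion 5 fell and none rose, with a median of -0.73. Tox, a factor of exhausted T cells, fell 2.70-fold, Tcf7 (TCF-1), of naive and stem-like T cells, 2.92-fold and Nfatc1, which B cells also express, 1.80-fold. Tox2 stood at 30.3 ± 4.30 CPM (n = 3) in sham and 31.2 ± 9.37 CPM (n = 4) in imBAT and was not called (edgeR adjusted p = 0.882). The T cell list, with its median of -1.51, moved beside these genes, and its part was not tested.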
